A study of Homo sapiens with 12 samples.

Results

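The genes described here are 43 genes of the lysosome, taken by symbol from a count table of 19447 gene symbols. They comprise the 3 transcription factors TFEB, TFE3 and MITF, 4 membrane proteins, 20 luminal proteins, and 16 genes of the proton pump, the V-ATPase. The 20 luminal proteins are called the enzymes for short, although PSAP and GRN among them are not themselves enzymes. All 43 were in the table, and all 43 passed the filter on low counts in every comparison. Whether strand was used in counting is not stated, and 25 of the 43 genes overlap another gene in the annotation, so that some of their counts may come from the neighbour. Messenger RNA was sequenced in 12 libraries of K562, a human cell line from chronic myeloid leukaemia, and of K562/IM, a line that the study derived from K562 by raising the concentration of imatinib (IM), the BCR-ABL inhibitor, in steps. Each of the 4 groups held 3 libraries: K562 without drug, K562 treated with lycorine at 6 µM (K562+L), K562/IM without lycorine, and K562/IM treated with lycorine at 6 µM (K562/IM+L). Lycorine is an alkaloid of the amaryllis family, and the duration of the treatment before sequencing was not given in the sources used here. The methods of the study describe K562/IM as growing in medium with 5 µM imatinib, and whether the drug was present when these RNAs were taken was not given in the sources used here. K562/IM is 1 resistant line made by selection, so that its differences from K562 are those of that line. The labels do not say that the 3 libraries of a group came from separate cultures, and p-values then measure only the spread between these libraries, which may be technical.

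Lysosomes digest proteins, glycans and lipids that reach them by endocytosis and autophagy. Their soluble hydrolases work at an acid pH that is kept by the V-ATPase, in which the cytosolic V1 ring splits ATP and the membrane-bound V0 ring moves protons into the lumen. The limiting membrane is lined with heavily glycosylated proteins such as LAMP1 and LAMP2. TFEB, TFE3 and MITF are related factors that bind the E-box CACGTG in the promoters of many of these genes, best within the longer palindrome known as the CLEAR motif, and are controlled largely by phosphorylation and by movement into the nucleus, which mRNA does not show.

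The labels of K562/IM+L carry the group name G2, whereas the figures of the study use G6 for that condition. The grouping was left as deposited, and the 3 libraries are called the group labelled K562/IM+L. Total counts ran from 75093844 to 107344598 a library, and Pearson's r of log2 CPM (counts scaled to the size of the library) was 0.977 to 0.989 within groups and 0.872 to 0.974 between groups. Levels are given as CPM scaled by TMM over the 12 libraries. They are relative to the other transcripts of a library, and fewer cells of a type cannot be told apart from less RNA per cell. The summed level of 13 erythroid genes, a program that K562 cells express, was 7382 to 10074 CPM in K562, 4855 to 5628 in K562+L, 3337 to 3548 in K562/IM and 41564 to 58747 in the group labelled K562/IM+L. None of the 13 was at 0 in any group. In the same order of groups, the sum of 6 megakaryocyte genes was 6.18 to 8.11, 6.59 to 6.69, 192 to 212 and 23.8 to 26.6 CPM. That of 9 myeloid genes was 118 to 122, 112 to 131, 180.2 to 191 and 83.1 to 87.9, and that of 6 lymphoid genes was 2.47 to 3.86, 0.797 to 1.59, 25.4 to 27.2 and 1.40 to 1.94. The erythroid anion exchanger SLC4A1 was under 1 CPM in K562/IM. The platelet gene PPBP and the B-cell gene MS4A1 had no counts in any library. In K562/IM GP9, PF4 and PPBP had no counts, so its megakaryocyte sum came from the other genes of that list. There 6 of the 9 myeloid and 3 of the 6 lymphoid genes were under 1 CPM in every library. In the other groups 7 of the 9 myeloid and 4 to 6 of the 6 lymphoid genes were.

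The E-box was looked for in promoter windows from RefSeq (GRCh38.p14), each covering 250 bases before and 50 bases after a gene's start, which were at hand for 32 of the 43 genes. CACGTG lay in the window of 9 of the 32 (28.1%), compared with 8.92% of the windows of 15096 symbols of the count table. Those symbols were not limited to genes that passed the filter on low counts, as all 43 did, so the 2 shares are not strictly alike. The longer TCACGTGA lay in 6 (18.8%, against 1.44%) and the complete CLEAR palindrome, which adds a G before and a C after TCACGTGA, in 3 (9.38%, against 0.576%). Each motif reads the same on both strands, and each longer one contains the shorter. For each of the 9 windows, 1 stretch of 30 bases around the first occurrence of its longest motif is shown because E-boxes of this kind are what TFEB and its relatives are known to bind, with that motif in capitals. Further CACGTG in the same windows are not shown.
GAA (chr17:80101493-80101522, plus strand): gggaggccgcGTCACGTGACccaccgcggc
MCOLN1 (chr19:7522598-7522627, plus strand): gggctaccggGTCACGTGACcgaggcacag
ATP6V1G1 (chr9:114587699-114587728, plus strand): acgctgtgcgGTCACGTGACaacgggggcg
LAMP1 (chr13:113297199-113297228, plus strand): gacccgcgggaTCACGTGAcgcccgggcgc
CTSA (chr20:45891298-45891327, plus strand): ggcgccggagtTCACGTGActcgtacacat
ATP6V0D1 (chr16:67481199-67481228, minus strand): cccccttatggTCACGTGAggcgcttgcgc
NEU1 (chr6:31862930-31862959, minus strand): atgctgcgtgatCACGTGggaggagatgag
CTSD (chr11:1763957-1763986, minus strand): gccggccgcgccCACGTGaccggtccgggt
ATP6V0B (chr1:43974891-43974920, plus strand): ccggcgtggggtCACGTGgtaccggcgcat
The motif shown began between 16 bases (MCOLN1) and 126 bases (NEU1) before the start. In 5 of the 9 windows CACGTG occurred more than once, with 6 occurrences in LAMP1, the first 192 bases before the start, and 2 each in GAA, MCOLN1, CTSA and ATP6V0B. The stretches came from 3 classes: the membrane proteins LAMP1 and MCOLN1, the enzymes GAA, CTSA, NEU1 and CTSD, and the V-ATPase subunits ATP6V1G1, ATP6V0D1 and ATP6V0B. Among 84 other lysosome genes with a window, CACGTG lay in 23.8% and the complete palindrome in 5.95%. These matches are letters in a window and not measured binding.

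In the libraries as a whole, the 43 genes together took 0.443% to 0.461% of counts in K562, 0.411% to 0.435% in K562+L, 0.441% to 0.452% in K562/IM and 0.611% to 0.642% in the group labelled K562/IM+L. Most of the rise in the last group lay in the luminal enzymes. Their summed level, from the lowest to the highest library, was 2264, 2406 and 2529 CPM in K562, 1955, 2015 and 2064 in K562+L, 2192, 2200.03 and 2266 in K562/IM and 3912, 4377 and 4452 in the group labelled K562/IM+L. All K562+L sums lay below all K562 sums, those of K562/IM overlapped with K562 at its lowest library, and the 3 sums labelled K562/IM+L lay above all 9 others. The summed level of the 16 V-ATPase genes was 1888, 2017 and 2095 CPM, 1930.03, 1993 and 2042, 1445, 1518 and 1529.7 and 1733, 1912 and 1972 in the same order, with K562/IM below every library of the other 3 groups. These sums were scaled by TMM and the shares of counts were not, which changed the place of K562/IM beside K562. As shares of counts, the enzymes took 0.240% to 0.248% in K562/IM, above the 0.223% to 0.236% of K562. By scaled sums all 43 genes were at 4011 to 4133 CPM in K562/IM, below the 4497 to 4933 of K562. The V-ATPase share in K562/IM, 0.159% to 0.167%, stayed below every library of the other 3 groups. The differences were then tested across all genes by the quasi-likelihood test of edgeR, with p-values adjusted by Benjamini-Hochberg, and a gene was called where its adjusted p was under 0.05. Untreated K562 and K562/IM each serve in more than 1 comparison, so that the comparisons are not independent of each other.

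**Figure D1:**
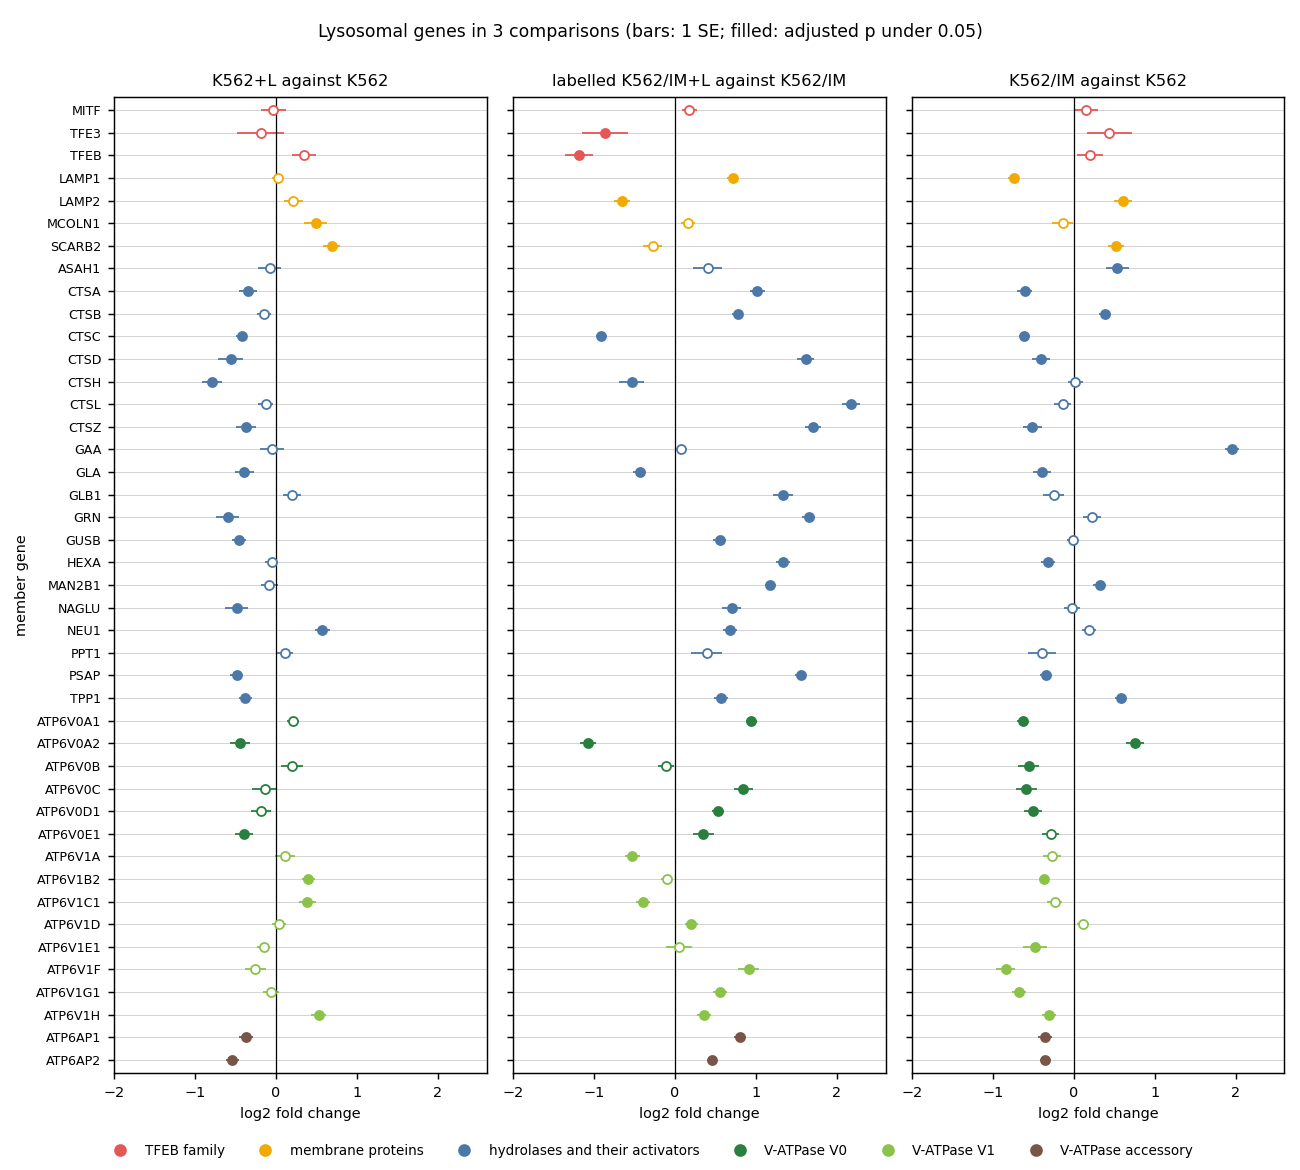
Log2 fold change (x axis) of each of the 43 genes (rows) in 3 comparisons (panels), with bars of 1 SE, filled where the adjusted p was under 0.05 and coloured by class. The enzymes sat mainly left of 0 in K562+L against K562 and mainly right of 0 in the group labelled K562/IM+L against K562/IM, where CTSL reached 2.17, and the V-ATPase genes sat mainly left of 0 in K562/IM against K562.

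Of the 3 transcription factors, none was called between K562+L and K562 or between K562/IM and K562. TFEB (chr6:41683978-41736259, minus strand; GRCh38, GENCODE 29) stood at 7.72, 9.48 and 9.16 CPM in K562 and 12.5, 11.7 and 9.32 in K562+L. TFEB was at 11.96, 10.1 and 8.23 CPM in K562/IM and 4.64, 4.70 and 3.72 in the group labelled K562/IM+L. The last 3 values lay below all 9 others, while the other 3 groups overlapped. TFEB was 2.28-fold lower in the group labelled K562/IM+L than in K562/IM (log2 fold change -1.19 ± 0.17 (SE), adjusted p = 0.000628) and 2.04-fold lower than in K562 (-1.03 ± 0.16 (SE), adjusted p = 0.00141). In K562+L against K562 its log2 fold change was 0.34 ± 0.15 (SE), adjusted p = 0.101, and in K562/IM against K562 0.20 ± 0.16 (SE), adjusted p = 0.310.

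TFE3 (chrX:49028726-49043486, minus strand), the X-linked relative of TFEB, varied within groups, at 38.5, 42.4 and 42.00 CPM in K562 and 46.8, 42.2 and 18.9 in K562+L. TFE3 was at 66.1, 30.05 and 70.4 CPM in K562/IM and 30.4, 29.1 and 30.4 in the group labelled K562/IM+L. Replicate 3 of K562+L and replicate 2 of K562/IM lay far below the other libraries of their groups. TFE3 was called lower in the group labelled K562/IM+L than in K562/IM (-0.86 ± 0.29 (SE), adjusted p = 0.0298), but the call was lost on leaving out any of 5 of the 6 libraries, all but K562/IM replicate 2 (adjusted p 0.0525 to 0.109). It was also lower there than in K562 (-0.47 ± 0.08 (SE), adjusted p = 0.00257). In K562+L against K562 the log2 fold change of TFE3 was -0.19 ± 0.29 (SE), adjusted p = 0.637, and it turned to 0.12 (adjusted p = 0.456) without K562+L replicate 3. In K562/IM against K562 it was 0.44 ± 0.28 (SE), adjusted p = 0.215, and without K562/IM replicate 2 it became 0.74 (adjusted p = 0.00134). MITF (chr3:69739435-69968337, plus strand), the melanocyte and osteoclast factor of the family, held 47.6, 36.4 and 31.2 CPM in K562 and 34.99, 38.4 and 39.5 in K562+L. MITF was at 42.3, 43.9 and 41.8 CPM in K562/IM and 46.2, 42.95 and 52.9 in the group labelled K562/IM+L. Its log2 fold changes were -0.03 ± 0.15 (SE) in K562+L against K562, 0.18 ± 0.09 in the group labelled K562/IM+L against K562/IM, 0.15 ± 0.15 in K562/IM against K562 and 0.28 ± 0.16 in the group labelled K562/IM+L against K562, with adjusted p of 0.885, 0.125, 0.406 and 0.186. It was called higher without K562 replicate 1 in K562/IM against K562 (0.30, adjusted p = 0.0122) and in the group labelled K562/IM+L against K562 (0.46, adjusted p = 0.0202), and against K562/IM without replicate 2 of the group labelled K562/IM+L (0.24, adjusted p = 0.0487).

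The 4 membrane proteins did not move as a group. LAMP1 (chr13:113297241-113323672, plus strand) and LAMP2 (chrX:120427827-120469365, minus strand), the major glycoproteins of the lysosomal membrane, went opposite ways. LAMP1 was at 99.1, 97.9 and 103 CPM in K562 and 103, 102 and 101 in K562+L. LAMP1 was at 59.5, 60.9 and 59.3 CPM in K562/IM and 102, 96.1 and 91.1 in the group labelled K562/IM+L. The K562/IM libraries alone stood low, 1.67-fold below K562 (-0.74 ± 0.06 (SE), adjusted p = 6.48e-05) and with no overlap with any other group. LAMP2 was at 106, 97.2 and 78.7 CPM in K562 and 110.2, 106 and 111 in K562+L. LAMP2 was at 139, 146 and 143 CPM in K562/IM and 82.3, 82.8 and 102 in the group labelled K562/IM+L. The K562/IM libraries alone stood high for LAMP2, 1.52-fold above K562 (0.60 ± 0.11 (SE), adjusted p = 0.00242). Between the group labelled K562/IM+L and K562/IM, LAMP1 was higher (0.71 ± 0.07 (SE), adjusted p = 6.70e-05) and LAMP2 lower (-0.66 ± 0.10 (SE), adjusted p = 0.000749). Neither was called between the group labelled K562/IM+L and K562, at -0.07 ± 0.08 and -0.10 ± 0.14 (SE), or between K562+L and K562, at 0.02 ± 0.08 and 0.21 ± 0.12.

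SCARB2 (LIMP-2, chr4:76158733-76234536, minus strand), the membrane receptor that carries glucocerebrosidase to lysosomes, was at 31.6, 26.97 and 25.5 CPM in K562 and 45.5, 44.3 and 45.9 in K562+L. SCARB2 was at 38.04, 42.6 and 40.3 CPM in K562/IM and 32.1, 28.3 and 37.9 in the group labelled K562/IM+L. The 3 K562+L libraries exceeded the 3 of K562 without overlap, and SCARB2 was the gene with the smallest p among those that rose in that comparison (1.61-fold; 0.69 ± 0.10 (SE), adjusted p = 0.00235). It was also higher in K562/IM than in K562 (0.52 ± 0.10 (SE), adjusted p = 0.00301). MCOLN1 (chr19:7522626-7534009, plus strand), the calcium channel TRPML1, rose with lycorine in K562, from 14.2, 18.9 and 19.7 to 23.3, 27.5 and 23.3 CPM (0.49 ± 0.14 (SE), adjusted p = 0.0297), and was not called in the other comparisons. There its log2 fold changes were 0.16 ± 0.08 (SE) in the group labelled K562/IM+L against K562/IM, -0.14 ± 0.13 in K562/IM against K562 and -0.02 ± 0.14 in the group labelled K562/IM+L against K562.

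**Figure D2:**
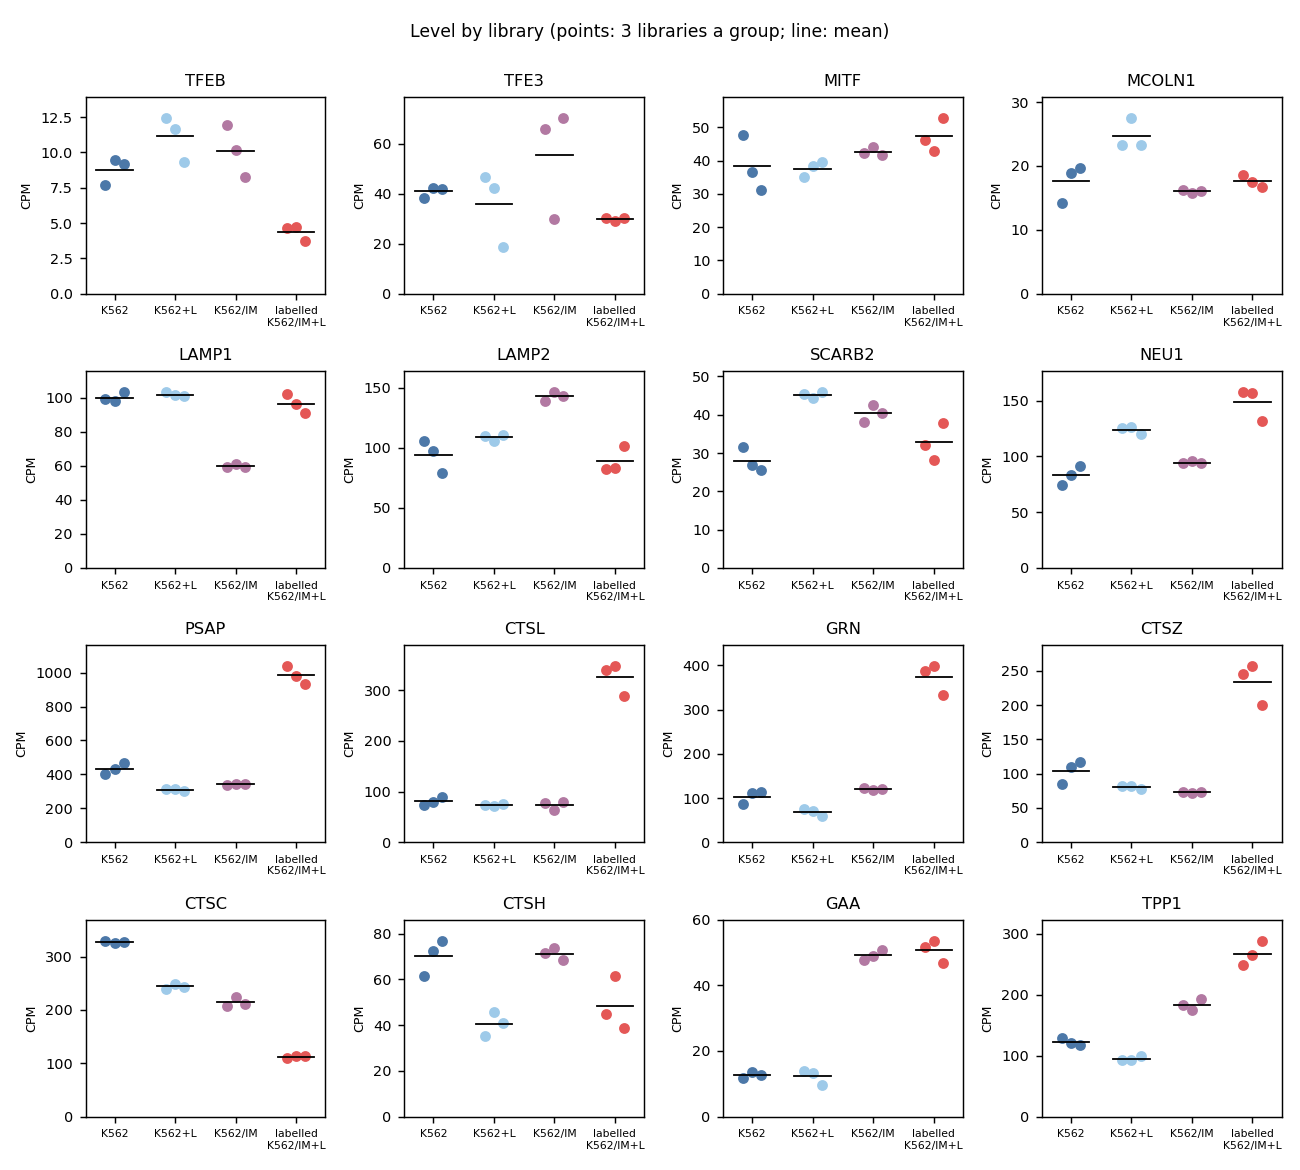
Level in CPM (y axis, from 0) of 16 genes in each of the 12 libraries by group (x axis), with a line at the mean of 3 libraries. PSAP, CTSL, GRN and CTSZ stood high in the group labelled K562/IM+L and CTSC and TFEB stood low there, while LAMP1 was low and LAMP2 high in K562/IM.

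The first lycorine comparison asked which genes the drug changed in the parental line. In K562+L against K562, 6 of the 43 lysosomal genes were higher, where 18.2% of the 12927 genes tested were higher, and 15 were lower, where 19.0% of all genes were lower. By the stricter rule of a change over 2-fold as well, none of the 43 was higher (2.38% of all genes) and none was lower (4.01%). Their median log2 fold change was -0.13, compared with -0.00012 over all genes. The 15 lower genes became 7 without K562 replicate 2, 9 without K562 replicate 3, 9 without K562+L replicate 2 and 7 without K562+L replicate 3. Calls over all genes, in both directions, fell from 4821 to 2871, 3814, 3723 and 3058 in the same fits. Without K562 replicate 1 the 15 became 18 and the calls over all genes 5823. Of the 15 called lower with all libraries, 11 were luminal enzymes and 4 were V-ATPase genes. Of the 20 enzymes 11 were lower, 1 was higher and 8 were not called (median log2 fold change -0.36). The 11 became 5 without K562 replicate 2, and 6 without K562 replicate 3, K562+L replicate 2 or K562+L replicate 3. In the same libraries 8 of the 13 erythroid genes were lower and none was higher, and the part of erythroid expression in the fall of the enzymes was not tested.

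Cathepsin H (CTSH, chr15:78921058-78949574, minus strand), an aminopeptidase, showed the largest fall among the enzymes, from 61.4, 72.3 and 76.9 CPM in K562 to 35.4, 45.6 and 40.7 in K562+L (1.73-fold lower; -0.79 ± 0.13 (SE), adjusted p = 0.00303). Cathepsin C (CTSC, chr11:88293592-88337787, minus strand), the dipeptidyl peptidase that activates granule serine proteases, fell from 329.9, 325 and 327 to 239.9, 249 and 244 CPM (-0.42 ± 0.07 (SE), adjusted p = 0.00346). Prosaposin (PSAP, chr10:71816298-71851375, minus strand), the precursor of the saposins that present lipids to hydrolases, fell from 402, 431 and 468 to 314, 311 and 303 CPM (-0.49 ± 0.08 (SE), adjusted p = 0.00372). In each of the 3 genes all K562+L libraries lay below all K562 libraries. Beta-glucuronidase (GUSB) fell by a similar amount (-0.46 ± 0.09 (SE), adjusted p = 0.00606). The other 7 lower enzymes were GRN, CTSD, NAGLU, GLA, TPP1, CTSZ and CTSA, with log2 fold changes from -0.60 for GRN, the progranulin gene, to -0.35 for CTSA. Sialidase 1 (NEU1, chr6:31857659-31862906, minus strand), which removes sialic acid from glycoproteins, went the other way, from 74.8, 82.9 and 91.8 to 125, 126 and 120.4 CPM without overlap (1.49-fold higher; 0.57 ± 0.10 (SE), adjusted p = 0.00383). The 8 enzymes not called were CTSB, CTSL, GAA, GLB1, HEXA, MAN2B1, ASAH1 and PPT1, whose log2 fold changes lay between -0.15 for CTSB and 0.20 for GLB1.

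In the resistant line most enzymes were higher with lycorine as labelled. In the group labelled K562/IM+L against K562/IM, 25 of the 43 genes were higher, where 33.2% of the 13727 genes tested were higher, and 9 were lower, where 33.6% were lower. Among the 25, 9 were also more than 2-fold higher (14.7% of all genes were). All of them belonged to the enzyme class, PSAP and GRN included. Of the 43, 2 genes, TFEB and ATP6V0A2, were more than 2-fold lower (13.8% of all genes). The median log2 fold change was 0.46 over the 43 genes and -0.0069 over all genes. Of the 20 enzymes 14 were higher, 3 were lower and 3 were not called (median log2 fold change 0.74). All 13 erythroid genes were higher in the same libraries, and their median log2 fold change was 4.14. Their part in the enzyme result was not tested.

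Cathepsin L (CTSL, chr9:87725519-87731393, plus strand), a broad cysteine protease, was at 77.3, 64.4 and 78.5 CPM in K562/IM and 339.7, 347 and 289 in the group labelled K562/IM+L (4.51-fold higher; 2.17 ± 0.11 (SE), adjusted p = 3.69e-06). Cathepsin Z (CTSZ, chr20:58995185-59007247, minus strand), a carboxypeptidase, rose from 73.7, 71.5 and 73.9 to 246, 257 and 199.98 CPM (3.26-fold; 1.71 ± 0.10 (SE), adjusted p = 7.20e-06). Progranulin (GRN, chr17:44345086-44353102, plus strand) rose from 123, 119 and 120.3 to 388, 398 and 333 CPM (3.14-fold; 1.65 ± 0.08 (SE), adjusted p = 3.40e-06). For these 3 genes the lowest library labelled K562/IM+L was more than 2-fold above the highest K562/IM library. PSAP had the smallest p of the 43 genes, with 339, 341 and 344 CPM in K562/IM against 1037, 982 and 933 (2.93-fold; 1.55 ± 0.07 (SE), adjusted p = 1.51e-06). Alpha-mannosidase (MAN2B1) rose from 57.9, 53.4 and 56.9 to 127, 127 and 119.8 CPM (1.18 ± 0.07 (SE), adjusted p = 6.11e-06). The 4 other enzymes over 2-fold were CTSD, the aspartyl protease (1.61), GLB1, beta-galactosidase (1.34), HEXA, the alpha subunit of hexosaminidase A (1.33), and CTSA, the protective protein of GLB1 and NEU1 (1.02). CTSB, NAGLU, NEU1, TPP1 and GUSB were higher by less, from 0.56 for GUSB to 0.78 for CTSB.

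CTSC, CTSH and GLA, the alpha-galactosidase that is missing in Fabry disease, were lower in the group labelled K562/IM+L. CTSC was at 207, 224 and 212 CPM in K562/IM and 111, 113 and 113 there (1.87-fold lower; -0.91 ± 0.06 (SE), adjusted p = 1.74e-05), and its groups did not overlap. CTSH and GLA fell by less, with log2 fold changes of -0.53 ± 0.16 and -0.43 ± 0.08 (SE). These 3 enzymes were also among those lower in K562+L against K562. GAA, ASAH1 and PPT1 were not called, at 0.07 ± 0.07, 0.40 ± 0.18 and 0.39 ± 0.19.

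The untreated lines differed less uniformly. In K562/IM against K562, 8 of the 43 genes were higher, where 30.1% of the 13406 genes tested were higher, and 19 were lower, where 27.1% were lower (median log2 fold change -0.26, compared with 0.04 over all genes). Of the enzymes 5 were higher (GAA, TPP1, ASAH1, CTSB and MAN2B1) and 7 were lower (CTSA, CTSC, CTSZ, CTSD, GLA, PSAP and HEXA), and the 7 became 4 without K562/IM replicate 1. Acid alpha-glucosidase (GAA, chr17:80101556-80119879, plus strand), which breaks down glycogen in lysosomes, stood apart. Its level was 11.7, 13.6 and 12.8 CPM in K562 and 13.8, 13.4 and 9.72 in K562+L. GAA was at 47.7, 48.9 and 50.7 CPM in K562/IM and 51.7, 53.6 and 46.7 in the group labelled K562/IM+L. GAA thus separated the 6 libraries labelled K562/IM or K562/IM+L from the 6 labelled K562 or K562+L. It was 3.87-fold higher in K562/IM than in K562 (1.95 ± 0.09 (SE), adjusted p = 2.45e-06). It was the 1 gene of the 43 over 2-fold in that comparison (13.9% of all genes were higher by that rule, and 5.29% lower). Tripeptidyl peptidase 1 (TPP1, chr11:6612763-6619485, minus strand) was at 128, 121 and 118 CPM in K562 and 92.4, 92.3 and 98.5 in K562+L. TPP1 was at 182, 175 and 193 CPM in K562/IM and 248, 265 and 288 in the group labelled K562/IM+L, with no overlap between any of the groups (K562/IM against K562 0.58 ± 0.07 (SE), adjusted p = 0.000374). Cathepsin B (CTSB) was 1.31-fold higher in K562/IM (0.39 ± 0.07 (SE), adjusted p = 0.00260) and CTSC 1.53-fold lower (-0.61 ± 0.06 (SE), adjusted p = 0.000162). In the same comparison 11 of 13 erythroid genes were lower and 1 was higher, and all 3 megakaryocyte and all 3 lymphoid genes that passed the filter, and 5 of 6 such myeloid genes, were higher. Their part in the lysosomal differences was not tested.

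Because the name of the group differs between labels and figures, the group labelled K562/IM+L was also set against untreated K562. There 19 of the 43 genes were higher, where 28.2% of the 13307 genes tested were higher, and 10 were lower, where 27.8% were lower, with a median log2 fold change of 0.20 against 0.02 over all genes. All 10 that were more than 2-fold higher were enzymes (14.9% of all genes were higher by that rule), and 2, CTSC and TFEB, were more than 2-fold lower (8.91% of all genes). The 2 became 1 without K562 replicate 2 and 1 without replicate 3 of the group labelled K562/IM+L. Of the 20 enzymes 16 were higher (median log2 fold change 1.01). Those with the smallest p were GAA (1.98 ± 0.11 (SE), adjusted p = 1.50e-05), CTSL (1.99 ± 0.12 (SE), adjusted p = 2.31e-05), MAN2B1 (1.45 ± 0.09 (SE), adjusted p = 2.54e-05), GRN (1.83 ± 0.14 (SE), adjusted p = 5.40e-05) and TPP1 (1.10 ± 0.09 (SE), adjusted p = 6.48e-05). CTSC (2.95-fold lower; -1.56 ± 0.07 (SE), adjusted p = 1.02e-05), GLA (-0.87 ± 0.12 (SE), adjusted p = 0.000729) and CTSH (-0.55 ± 0.19) were lower, and PPT1 was not called (-0.05 ± 0.13). In this comparison 11 of the 13 erythroid genes were higher and none was lower, and their part in it was not tested.

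The V-ATPase genes were compared with each other per kb of exon, since CPM grows with the length of a transcript. In untreated K562 the order ran from ATP6V1F at 236 ± 38.99 CPM per kb (SD, n = 3), ATP6V0C, the proteolipid of the V0 ring, at 123 ± 22.3 and ATP6V1G1 at 102 ± 6.79, down to ATP6AP2 at 8.31 ± 0.260, ATP6V1D at 7.94 ± 0.417 and ATP6V0A2 at 4.82 ± 0.752. The highest was 49.0 times the lowest, and 9 of the 15 pairs of neighbours in this order differed by more than their SDs. The other 6 pairs did not, among them ATP6V0C and ATP6V1G1, and ATP6AP2 and ATP6V1D. Taking the longest transcript in place of all exons moved ATP6V0A1 from place 9 to place 6 and ATP6V1C1 from 10 to 14, with ATP6V1F and ATP6V0C still first and ATP6V0A2 last. Among the enzymes and activators PSAP was the highest per length in K562, at 134 ± 10.3 CPM per kb, and reached 304 ± 16.1 in the group labelled K562/IM+L, and GAA was the lowest at 2.46 ± 0.182.

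**Figure D3:**
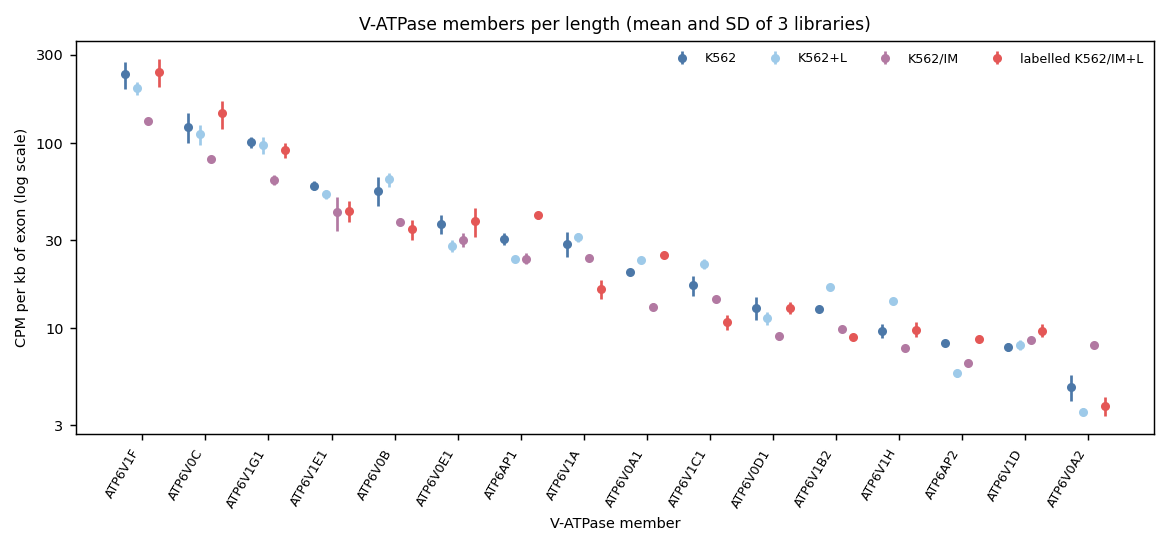
Level per length of the 16 V-ATPase genes (x axis, ordered by K562) in CPM per kb of exon (y axis, log scale) as mean and SD of 3 libraries in each of the 4 groups. K562/IM lay below K562 for ATP6V1F, ATP6V0C and ATP6V1G1 and above it for ATP6V0A2, at 8.15 ± 0.217 against 4.82 ± 0.752.

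Between the untreated lines the V-ATPase held more lower genes than any other class of the 43. In K562/IM 11 of the 16 were lower than in K562, 1 was higher and 4 were not called, with a median log2 fold change of -0.36 (of all genes 27.1% were lower and 30.1% higher). The lower genes came from both rings and from the accessory proteins: ATP6V0A1, ATP6V0B, ATP6V0C and ATP6V0D1 of V0, ATP6V1B2, ATP6V1E1, ATP6V1F, ATP6V1G1 and ATP6V1H of V1, and ATP6AP1 and ATP6AP2. ATP6V1F (chr7:128862826-128865844, plus strand), a subunit of the central stalk, was at 157, 185 and 218 CPM in K562 and 165, 162 and 142 in K562+L. ATP6V1F was at 105, 107 and 101 CPM in K562/IM and 205, 218 and 154 in the group labelled K562/IM+L (K562/IM against K562 -0.84 ± 0.12 (SE), adjusted p = 0.000681). ATP6V1G1, a subunit of the peripheral stalks, was lower too (-0.68 ± 0.08 (SE), adjusted p = 0.000321). The 4 genes not called were ATP6V0E1, ATP6V1A, ATP6V1C1 and ATP6V1D, at -0.29, -0.26, -0.24 and 0.12.

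The a subunits of V0, which steer the pump to different membranes, went opposite ways. ATP6V0A1 (chr17:42458844-42522611, plus strand) was at 229, 219.8 and 218 CPM in K562 and 261, 248 and 262 in K562+L. ATP6V0A1 was at 146, 136 and 148 CPM in K562/IM and 275, 266 and 272 in the group labelled K562/IM+L. ATP6V0A2 (chr12:123712318-123761755, plus strand), the form best known from the Golgi and endosomes, was at 77.5, 63.4 and 57.4 CPM in K562 and 50.01, 46.2 and 49.9 in K562+L. ATP6V0A2 was at 109, 112 and 115 CPM in K562/IM and 49.5, 47.6 and 59.3 in the group labelled K562/IM+L. K562/IM was thus the lowest group for ATP6V0A1 and the highest for ATP6V0A2, without overlap in either. In K562/IM against K562 ATP6V0A1 was lower (-0.63 ± 0.07 (SE), adjusted p = 0.000181) and ATP6V0A2 higher (0.76 ± 0.11 (SE), adjusted p = 0.000869). In the group labelled K562/IM+L against K562/IM, ATP6V0A1 was higher (0.95 ± 0.07 (SE), adjusted p = 1.68e-05) and ATP6V0A2 lower (2.10-fold; -1.07 ± 0.10 (SE), adjusted p = 5.90e-05).

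With lycorine in K562, 3 of the 16 V-ATPase genes were higher and 4 were lower, shares near those of all genes (18.2% and 19.0%). The 3 that rose were all V1 subunits, namely ATP6V1H, ATP6V1B2 and ATP6V1C1. The regulatory subunit ATP6V1H went from 44.7, 51.9 and 51.4 to 72.7, 71.4 and 69.6 CPM (0.53 ± 0.09 (SE), adjusted p = 0.00408). ATP6V1B2, a subunit of the catalytic ring, went from 96.6, 102 and 100.04 to 131, 129 and 134 (0.40 ± 0.08 (SE), adjusted p = 0.00602). ATP6V1C1, which joins the peripheral stalks to V0, went from 113, 97.7 and 89.1 to 123, 130.4 and 139 (0.39 ± 0.11 (SE), adjusted p = 0.0251). The groups did not overlap in any of the 3, but the call of ATP6V1C1 was lost on leaving out any library other than K562 replicate 1 (adjusted p 0.0517 to 0.0945). The 4 that fell were V0 subunits ATP6V0A2 and ATP6V0E1 and the accessory proteins ATP6AP1 and ATP6AP2, and they became 2 without K562 replicate 2 or K562+L replicate 1 and 1 without K562+L replicate 3. ATP6AP2 (chrX:40579372-40606848, plus strand), the prorenin receptor that helps to assemble the pump, had the smallest p of all members that fell, from 79.2, 81.98 and 77.01 to 53.3, 57.97 and 52.9 CPM (1.45-fold lower; -0.54 ± 0.08 (SE), adjusted p = 0.00275).

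In the group labelled K562/IM+L against K562/IM, 10 of the 16 V-ATPase genes were higher and 3 were lower, with a median log2 fold change of 0.35 (of all genes 33.2% were higher and 33.6% lower). When 1 library was left out, 8 to 10 were higher and 3 to 4 were lower. The higher genes were ATP6V0A1 (0.95), ATP6V0C (0.85), ATP6V0D1 and ATP6V0E1 of V0, ATP6V1F (0.91), ATP6V1G1, ATP6V1H and ATP6V1D (0.20) of V1, and ATP6AP1 (0.81) and ATP6AP2. ATP6V0B, ATP6V1B2 and ATP6V1E1 were not called, at -0.11, -0.10 and 0.05. The erythroid genes, all higher in this comparison, were not tested for a part in it. The lower genes were ATP6V0A2, the catalytic subunit ATP6V1A and ATP6V1C1 (-0.40 ± 0.08). ATP6V1A went from 119.98, 125 and 124 to 78.2, 78.2 and 94.7 CPM (-0.53 ± 0.09 (SE), adjusted p = 0.00178). Against untreated K562 the same libraries showed 3 higher genes (ATP6V0A1, ATP6V1D and ATP6AP1) and 5 lower ones, where 28.2% of all genes were higher and 27.8% lower. The 5 were ATP6V1A (-0.84 ± 0.14 (SE), adjusted p = 0.00178), ATP6V0B (-0.71), ATP6V1C1 (-0.68), ATP6V1B2 (-0.52 ± 0.07 (SE), adjusted p = 0.000945) and ATP6V1E1 (-0.47). The 3 became 1 without K562 replicate 2, without K562 replicate 3 or without replicate 1 of the group labelled K562/IM+L.

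**Figure D4:**
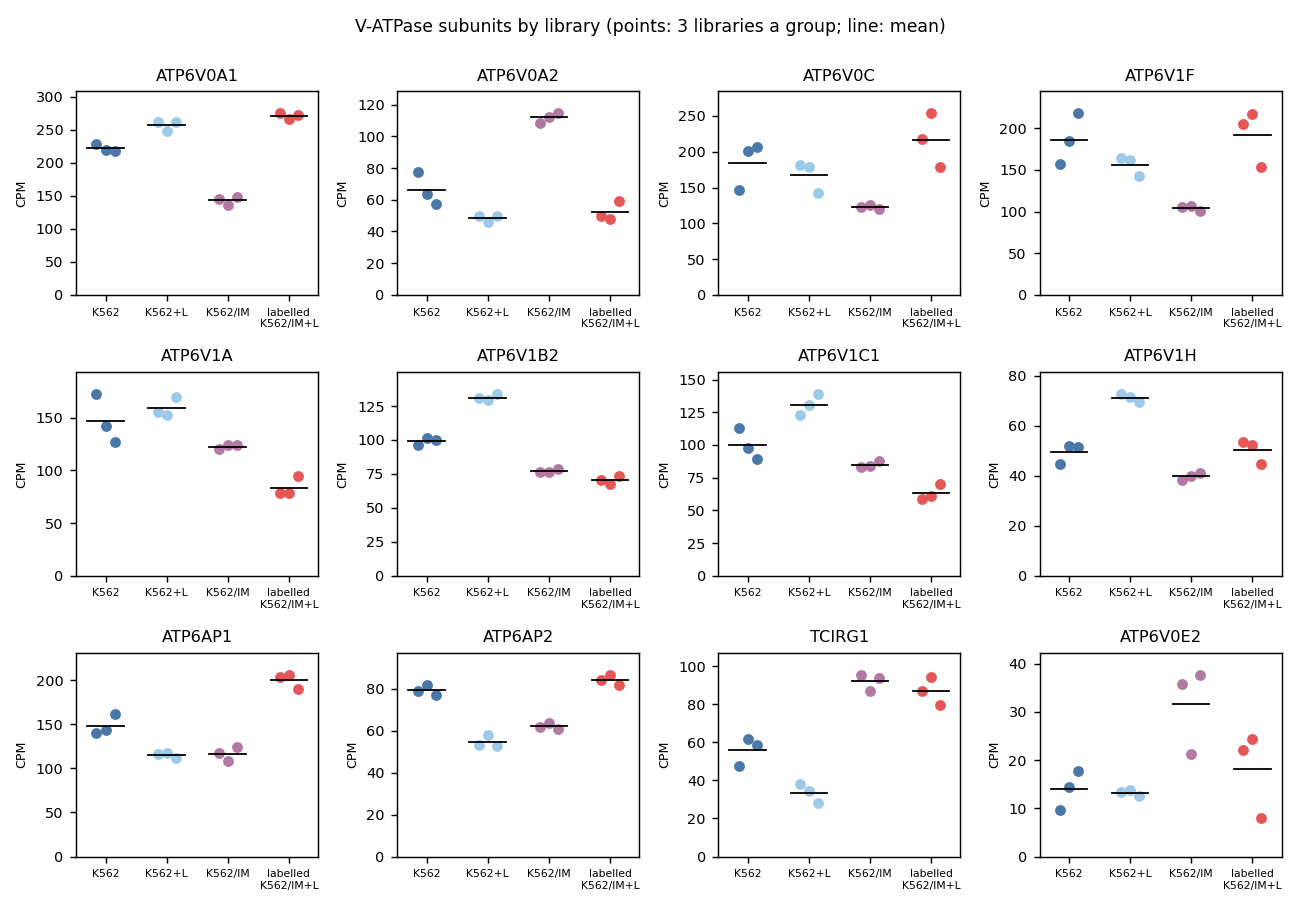
Level in CPM (y axis, from 0) of 10 V-ATPase genes and 2 alternative subunits, TCIRG1 and ATP6V0E2, in each of the 12 libraries by group (x axis), with a line at the mean of 3 libraries. ATP6V0A1 and ATP6V0A2 run opposite ways in K562/IM. The means of ATP6V1A, ATP6V1B2 and ATP6V1C1 are lowest in the group labelled K562/IM+L, although ATP6V1B2 was not called there against K562/IM.

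Whether lycorine had the same effect in both lines was tested as the difference of the 2 effects over all 12 libraries. For 22 of the 43 genes the effect was higher in the resistant line as labelled, where 29.9% of the 13995 genes tested were, and for 8 it was lower, where 31.7% were. Among the enzymes 13 of 20 had the higher effect and 1, CTSC, the lower one, with a median difference of 1.06 on the log2 scale. The smallest p-values belonged to PSAP (difference 2.02 ± 0.10 (SE), adjusted p = 1.32e-08), CTSL (2.28 ± 0.15 (SE), adjusted p = 1.49e-07), GRN (2.22 ± 0.17 (SE), adjusted p = 6.80e-07), CTSZ (2.06 ± 0.17 (SE), adjusted p = 9.39e-07) and HEXA (1.36 ± 0.11 (SE), adjusted p = 9.55e-07). In the other direction they belonged to TFEB (-1.55 ± 0.24 (SE), adjusted p = 0.000145), ATP6V1B2 (-0.53 ± 0.08 (SE), adjusted p = 0.000145), CTSC (-0.51 ± 0.08 (SE), adjusted p = 0.000154), SCARB2 (-0.99 ± 0.16 (SE), adjusted p = 0.000188) and ATP6V1C1 (-0.81 ± 0.13 (SE), adjusted p = 0.000282). LAMP1 had a higher effect (0.66 ± 0.09 (SE), adjusted p = 4.00e-05) and LAMP2 a lower one (-0.89 ± 0.15 (SE), adjusted p = 0.000364). The difference did not pass for TFE3 (-0.70 ± 0.46 (SE), adjusted p = 0.211), which passed without K562+L replicate 3 (-1.01, adjusted p = 0.0335) or K562/IM replicate 2 (-0.98, adjusted p = 0.0432), nor for MITF (0.19 ± 0.19 (SE), adjusted p = 0.418). NEU1 (0.09 ± 0.13), GAA (0.10 ± 0.17) and GLA (-0.06 ± 0.14) were among the 13 genes that did not pass. By the same test all 13 erythroid genes had a higher effect, with a median difference of 4.83. All 3 megakaryocyte genes that passed the filter had a lower one. The part of these genes in the lysosomal differences was not tested.

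The 2 lycorine comparisons share no library, so their calls can be set side by side. Of the 15 lysosomal genes lower in K562+L, 11 were higher in the group labelled K562/IM+L and 4 were lower there too, while of all 2457 such genes tested in both 48% were higher and 25.8% lower. The 11 were the enzymes CTSA, CTSD, CTSZ, GUSB, PSAP, NAGLU, TPP1 and GRN and the V-ATPase genes ATP6V0E1, ATP6AP1 and ATP6AP2. The 4 were CTSC, CTSH, GLA and ATP6V0A2. Of the 6 genes higher in K562+L, NEU1 and ATP6V1H were higher in the group labelled K562/IM+L too and ATP6V1C1 was lower. SCARB2, MCOLN1 and ATP6V1B2 were not called there. Of all 2346 genes higher in K562+L and tested in both, 22.4% were higher there and 46.6% lower.

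**Figure D5:**
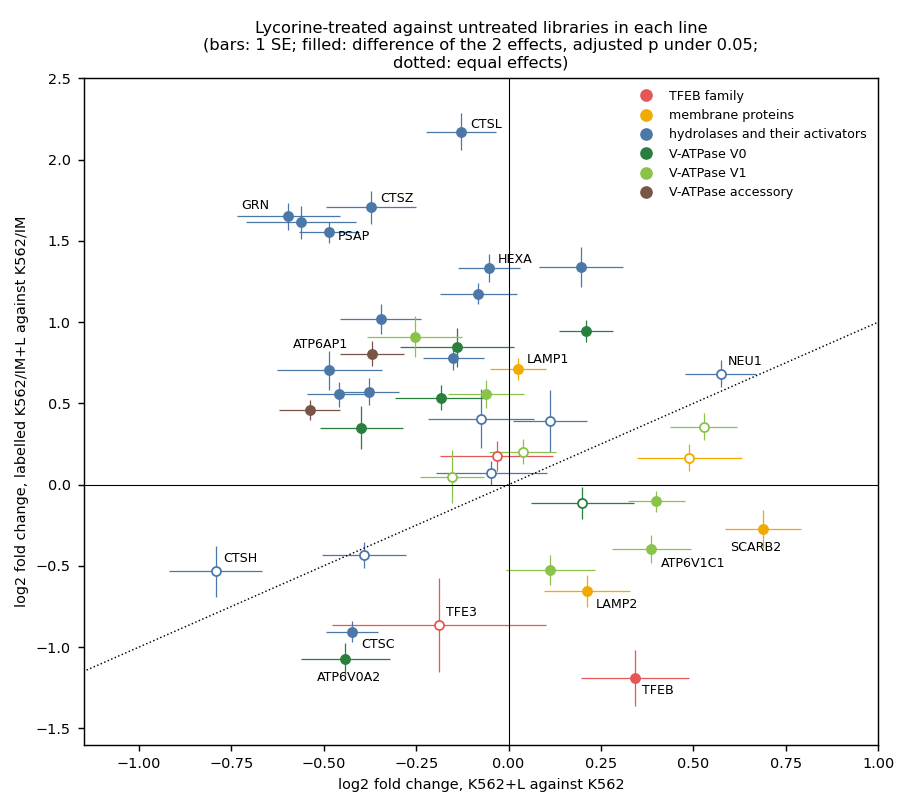
Log2 fold change of the 43 genes with lycorine in K562 (x axis) and in the resistant line as labelled (y axis), with bars of 1 SE, filled where the difference of the effects had an adjusted p under 0.05, and a dotted line at equal effects. CTSL, GRN, CTSZ and PSAP lie far above the line and TFEB, at 0.34 and -1.19, far below it, while NEU1 lies near it.

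The calls were also counted by the presence of CACGTG in the window, as a description. Of all genes, 33.2% were higher and 33.6% lower in the group labelled K562/IM+L against K562/IM, 18.2% and 19.0% in K562+L against K562, 30.1% and 27.1% in K562/IM against K562, and 28.2% and 27.8% in the group labelled K562/IM+L against K562. Of the 9 genes with CACGTG in the window, 6 were higher in the group labelled K562/IM+L than in K562/IM (LAMP1, CTSA, CTSD, NEU1, ATP6V0D1 and ATP6V1G1), none was lower and 3 were not called (GAA, MCOLN1 and ATP6V0B). Of the 23 genes with a window that lacked it, 13 were higher, 6 were lower and 4 were not called. In K562+L against K562 the 9 genes held 2 higher (NEU1 and MCOLN1) and 2 lower (CTSA and CTSD), and the 23 held 1 higher and 10 lower. In K562/IM against K562 the 9 held 1 higher (GAA) and 6 lower, and the 23 held 4 higher and 9 lower. In the group labelled K562/IM+L against K562 the 9 held 4 higher (CTSA, CTSD, GAA and NEU1) and 1 lower (ATP6V0B), and the 23 held 10 higher and 6 lower. Genes with the complete palindrome did not move together: in K562/IM against K562 GAA was 1.95, ATP6V1G1 -0.68 and MCOLN1 -0.14 on the log2 scale.

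Other lysosomal genes were counted in lists that hold none of the 43, beside the shares of all genes. Those were 18.2% higher and 19.0% lower in K562+L against K562, 33.2% and 33.6% in the group labelled K562/IM+L against K562/IM, 30.1% and 27.1% in K562/IM against K562, and 28.2% and 27.8% in the group labelled K562/IM+L against K562. Of 39 further hydrolases, of which 37 to 39 were tested in a comparison, 4 were higher and 12 lower in K562+L against K562, 26 were higher and 4 lower in the group labelled K562/IM+L against K562/IM, 12 were higher and 10 lower in K562/IM against K562, and 22 were higher and 4 lower in the group labelled K562/IM+L against K562. Their shares in K562/IM against K562 (32.4% and 27.0%) were near those of all genes. ACP5, tartrate-resistant acid phosphatase, was at 12.1, 15.6 and 16.8 CPM in K562 and 16.8, 25.2 and 21.7 in K562+L. ACP5 was at 0.922, 1.22 and 1.49 CPM in K562/IM and 96.8, 146 and 81.1 in the group labelled K562/IM+L, so that K562/IM stood lowest and the group labelled K562/IM+L highest. Cathepsin S (CTSS), a cysteine protease of antigen-presenting cells, was 11.7-fold higher in K562/IM than in K562, at 31.8, 34.04 and 32.7 against 2.53, 3.03 and 2.82 CPM (3.55 ± 0.10 (SE), adjusted p = 4.78e-07). With lycorine in K562, ARSB, arylsulfatase B, rose (0.90 ± 0.13 (SE), adjusted p = 0.00205) and the serine carboxypeptidase SCPEP1 fell (-0.87 ± 0.09 (SE), adjusted p = 0.000700). HGSNAT, an acetyltransferase of heparan sulfate breakdown, was 4.89-fold higher in the group labelled K562/IM+L than in K562 (2.29 ± 0.12 (SE), adjusted p = 1.38e-05). CTSO had 0, 0 and 0 counts in K562/IM and 28, 9 and 28 in the group labelled K562/IM+L, too few for a fold change.

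Of 31 further membrane proteins, of which 29 to 31 were tested, 8 were higher and 7 lower in K562+L against K562, 11 were higher and 11 lower in the group labelled K562/IM+L against K562/IM, 13 were higher and 5 lower in K562/IM against K562, and 12 were higher and 3 lower in the group labelled K562/IM+L against K562. The share of 35.5% in each direction in the group labelled K562/IM+L against K562/IM was near that of all genes. CD63, a tetraspanin of late endosomes, fell 2.63-fold with lycorine in K562, from 262, 284 and 337 to 111, 115 and 110.3 CPM (-1.40 ± 0.11 (SE), adjusted p = 0.000178). LAPTM5, a lysosomal protein of blood cells, was at 4.92, 5.60 and 6.96 CPM in K562 and 2.93, 3.17 and 3.06 in K562+L. LAPTM5 was at 553, 526 and 578 CPM in K562/IM and 23.97, 24.4 and 18.6 in the group labelled K562/IM+L (K562/IM against K562 6.57 ± 0.15 (SE), adjusted p = 2.87e-07; the group labelled K562/IM+L against K562 1.92 ± 0.18 (SE), adjusted p = 0.000133). MCOLN3, a relative of MCOLN1, had 9, 9 and 13 counts in K562 and 24, 48 and 42 in K562+L. MCOLN3 had 405, 478 and 530 counts in K562/IM and 5, 0 and 20 in the group labelled K562/IM+L. It was higher in K562/IM than in K562 (5.25 ± 0.24 (SE), adjusted p = 2.84e-06) and lower in the group labelled K562/IM+L than in K562/IM (-5.60 ± 0.67 (SE), adjusted p = 0.000235). Its call in K562+L against K562 (1.67 ± 0.51 (SE), adjusted p = 0.0344) was lost on leaving out any of the 6 libraries. MCOLN2 fell from 22, 15 and 50 counts in K562/IM to 0, 2 and 0 in the group labelled K562/IM+L, too few for a fold change. LAPTM4B was 4.18-fold lower in the group labelled K562/IM+L than in K562 (-2.06 ± 0.09 (SE), adjusted p = 9.49e-06).

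Of 13 alternative V-ATPase subunits and assembly factors, 9 passed the filter and ATP6V0A4, ATP6V0D2, ATP6V1B1 and ATP6V1G3 did not. Of the 9, 1 was higher and 3 were lower in K562+L against K562, 3 were higher and none lower in the group labelled K562/IM+L against K562/IM and likewise against K562, and 3 were higher and 2 lower in K562/IM against K562. The 33.3% higher in the group labelled K562/IM+L against K562/IM was near the 33.2% of all genes. TCIRG1, the a3 subunit of osteoclasts and lysosomes, was at 47.4, 62.04 and 58.8 CPM in K562 and 38.2, 34.7 and 27.99 in K562+L. TCIRG1 was at 95.5, 86.9 and 94.05 CPM in K562/IM and 86.96, 94.1 and 79.4 in the group labelled K562/IM+L. It fell with lycorine in K562 (-0.74 ± 0.15 (SE), adjusted p = 0.00709) and was higher than in K562 both in K562/IM (0.72 ± 0.11 (SE), adjusted p = 0.000993) and in the group labelled K562/IM+L (0.61 ± 0.13 (SE), adjusted p = 0.00521). ATP6V0E2 was higher in K562/IM than in K562 (1.18 ± 0.27 (SE), adjusted p = 0.00691), and was not called in K562+L against K562 (-0.08 ± 0.20) or in the group labelled K562/IM+L against K562/IM (-0.78 ± 0.40). ATP6V1E2 and ATP6V1G2 had log2 fold changes of 0.03 ± 0.16 and -0.36 ± 0.50 (SE) in K562+L against K562 and 0.20 ± 0.15 and 0.15 ± 0.29 in the group labelled K562/IM+L against K562/IM. ATP6V1C2 had 1328, 12 and 9 counts in K562 and 356, 9 and 575 in K562+L. ATP6V1C2 had 52, 31 and 68 counts in K562/IM and 8, 443 and 794 in the group labelled K562/IM+L, a spread of over 10-fold within 3 of the groups. Its call in the group labelled K562/IM+L against K562/IM (3.25 ± 1.15 (SE), adjusted p = 0.0377) was lost on leaving out any of 5 of the 6 libraries. The assembly factors of the RAVE complex went different ways in K562+L against K562. DMXL2 was higher (1.27 ± 0.24 (SE), adjusted p = 0.00579), ROGDI was lower (-0.71 ± 0.18 (SE), adjusted p = 0.0165) and DMXL1 was not called (0.20 ± 0.19). ROGDI was higher in the group labelled K562/IM+L than in K562/IM (1.61 ± 0.15 (SE), adjusted p = 5.94e-05) and than in K562 (0.90 ± 0.19 (SE), adjusted p = 0.00509).

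Genes that deliver or control the lysosome were also counted. Of 12 sorting and folding genes, 3 were higher and 2 lower in K562+L against K562, where 18.2% of all genes were higher and 19.0% lower. The mannose 6-phosphate receptor IGF2R was higher (0.62 ± 0.14 (SE), adjusted p = 0.0104) and GNPTG, a subunit of the enzyme that makes that tag, was lower (-0.55 ± 0.13 (SE), adjusted p = 0.0125), a call lost without K562 replicate 2 (adjusted p = 0.0535). In the group labelled K562/IM+L against K562/IM 5 were higher and 4 lower (all genes 33.2% and 33.6%), with GNPTG (1.04 ± 0.11 (SE), adjusted p = 0.000148) and SUMF1, the activator of sulfatases (1.04 ± 0.13 (SE), adjusted p = 0.000277), higher. Both were also higher there than in K562, at 0.99 ± 0.15 and 1.61 ± 0.16 (SE). In K562/IM against K562 (all genes 30.1% higher and 27.1% lower) 1 was higher, SUMF1 (0.62 ± 0.16), and 2 were lower, among them CLN6 (-0.85 ± 0.09). Of 13 tested genes of the Rag, Ragulator and folliculin complexes and of ZKSCAN3, which tether mTORC1 to the lysosome or repress its genes, 4 were higher and 4 lower in K562+L against K562, beside the same shares of all genes. RRAGC (0.78 ± 0.11 (SE), adjusted p = 0.00173) and LAMTOR1 (-0.68 ± 0.14 (SE), adjusted p = 0.00739) led them. In the group labelled K562/IM+L against K562/IM 6 of them were higher and none lower, led by RRAGD (0.80 ± 0.07 (SE), adjusted p = 6.30e-05) and LAMTOR5 (0.72 ± 0.12 (SE), adjusted p = 0.00111). In K562/IM against K562 2 were higher and 3 lower, with ZKSCAN3 at 0.71 ± 0.08 and LAMTOR5 at -0.67 ± 0.11. Against K562, where 28.2% of all genes were higher and 27.8% lower, the group labelled K562/IM+L had none that was lower and 2 that were higher, ZKSCAN3 (0.87 ± 0.09) and FNIP1 (0.44 ± 0.16), the latter call being lost on leaving out any of 4 of the 6 libraries. Of 6 protease inhibitors 2 or 3 passed the filter, and cystatin C (CST3) was lower in K562+L than in K562 (-0.55 ± 0.17 (SE), adjusted p = 0.0326), a call lost on leaving out any library other than K562 replicate 1. It was higher in the group labelled K562/IM+L than in K562/IM (1.17 ± 0.13 (SE), adjusted p = 0.000187) and than in K562 (0.81 ± 0.21 (SE), adjusted p = 0.0136), the last call being lost without replicate 2 of the group labelled K562/IM+L. CSTB was lower in K562/IM than in K562 (-0.32 ± 0.10 (SE), adjusted p = 0.0298), a call lost on leaving out any of 4 of the 6 libraries. CST7 had 0, 0 and 3 counts in K562 and 10, 3 and 0 in K562+L. CST7 had 11, 32 and 45 counts in K562/IM and 3, 0 and 2 in the group labelled K562/IM+L.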

How the data were processed

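Messenger RNA was extracted with TRIzol and sequenced in 12 libraries, 3 in each of 4 groups. The authors deposited 1 table of counts per gene symbol and library. Per the labels, reads were processed with FastQC, STAR, StringTie and DESeq2 on hg38, with no versions given, and whether strand was used was not given in the sources used here. Among the deposited counts from 1 to 25, 67.9% of 23289 values were a multiple of 4 or 1 above one, so low counts may not be single fragments and counting error is uncertain there.

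Genes were tested with edgeR 4.0.16 in R 4.3.3 (filterByExpr with a minimum count of 10, TMM, glmQLFit and glmQLFTest) on the 6 libraries of each comparison, and on all 12 for the difference of the lycorine effects. P-values were adjusted by Benjamini-Hochberg over all genes tested. A gene was called where the adjusted p was under 0.05, and by a stricter rule where the absolute log2 fold change was over 1 as well. SEs are the log2 fold change divided by the square root of the F statistic. Levels per kb used the union of exons in GENCODE 29, in which 19244 symbols of the table were found. The scripts were tested on simulated counts: for K562+L against K562 (12835 genes), 86 of 100 genes changed 2-fold and 98 of 100 changed by a log2 of 2 were recovered with 7 false calls, and for the difference of effects (13684 genes) 37 and 95 of 100 with 5 false calls. Each simulation gave all genes the same dispersion (0.0284 and 0.0298). In the real data the spread differed between genes and far more genes were called, so these rates may not hold there.

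The 43 genes and all lists were chosen with earlier results of these data known. In every comparison TFEB, TFE3, MITF, LAMP1, LAMP2 and the 5 members with the smallest p in each direction were named, and from each other list the 2 genes with the largest absolute log2 fold change among those called, with all alternative V-ATPase subunits that passed the filter. Other members named beside them complete the account of the 43. No set test was run. Alternatives were DESeq2 1.42.0, RLE and upper-quartile normalization, no filter, at least 10 counts in every library, all 12 libraries in 1 fit, the replicate number as a block, counts divided by 4, and leaving out each library. Figures were drawn with matplotlib 3.10.9.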

Additional observations from a re-analysis of the deposited data

Results flagged for a closer look

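The effect of lycorine differed between the resistant line as labelled and K562 by edgeR's quasi-likelihood test of the difference itself (adjusted p under 0.05 over all genes) for 22 members with a higher effect and 8 with a lower one, and the following are the members named for it. On the log2 scale the difference was 2.28 for CTSL, 2.22 for GRN, 2.06 for CTSZ, 2.02 for PSAP, 1.36 for HEXA and 0.66 for LAMP1. It was -1.55 for TFEB, -0.99 for SCARB2, -0.89 for LAMP2, -0.81 for ATP6V1C1, -0.53 for ATP6V1B2 and -0.51 for CTSC. CTSC was lower with lycorine in both lines as labelled, and more so in the group labelled K562/IM+L. For ATP6V1B2 and SCARB2 the level rose in K562 and was not called in the resistant line as labelled. All 13 erythroid genes also had a higher effect in the resistant line as labelled, and their part in these differences was not tested. Groups of 3 libraries are too small for a test of single outlying libraries.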

How the results depend on the processing

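The number of members that fell with lycorine in K562 changed with the settings. The 15 lower members became 6 with the replicate number as a block and 7 to 18 when 1 library was left out, and with the block the 11 lower enzymes became 5, the 4 lower V-ATPase genes 1 and the 3 higher ones 2. The 3 V-ATPase genes higher in the group labelled K562/IM+L than in K562 became 0 with the block, where 4 were lower. The 10 V-ATPase genes higher in that group than in K562/IM became 8 with the block and 8 with no filter. The members more than 2-fold lower in the group labelled K562/IM+L than in K562 became 1 with upper-quartile normalization and 1 to 2 when 1 library was left out. The direction of 5 values that were not called turned: in K562+L against K562, TFE3 ran from -0.43 to 0.12 and MITF from -0.16 to 0.14 on the log2 scale over the libraries left out (0.016 without K562+L replicate 1), and with upper-quartile normalization LAMP1 was -0.0197 there, and LAMP1 0.076 and LAMP2 0.052 in the group labelled K562/IM+L against K562. Upper-quartile normalization moved the median of all genes to 0.17 in that last comparison and to 0.11 for the difference of the effects. TFE3 was not called against K562 in the fit of all 12 libraries (adjusted p = 0.257), nor RRAGC in K562+L against K562 (adjusted p = 0.0594). No pairing of the samples by replicate number was seen. The correlation of deviations was -0.23 to 0.15 for the same number, over 0.1 in 2 of 18 pairs, and -0.17 to 0.23 for other numbers. Not every library correlated best with its own number. Deviations from means of 3 libraries cannot exclude a pairing. The block lowered the number of calls over all genes for lycorine in K562 from 4821 to 3126. The cause of these shifts was not tested. Of the counts of members, 140 of 142 values under other settings and 114 of 120 with 1 library left out stayed within 1.5 times the main count. Counts of 0 in both fits were among these, as for changes over 2-fold in K562+L against K562. Of the medians, 8 values under other settings moved by more than 1 SD between libraries and 109 did not. With 1 library left out 9 moved and 99 did not. Low counts near multiples of 4 limit what can be said of genes with few counts.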
